A study of Mus musculus with 2 samples.

Results

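The Neurod and Neurog genes, Ptf1a and Bhlhe22 encode basic helix-loop-helix (bHLH) transcription factors of neuronal lineages, and 9 of them were examined here among 21631 protein-coding genes for binding of the chromatin remodeller Brg1 in mouse medulloblastoma. The 9 genes were chosen by name, with earlier results of these data known. Each was assigned the Brg1-enriched regions (islands) lying in the gene or within 5 kb of it. All islands within 100 kb were then assigned, on the RefSeq annotation of mm10. The study immunoprecipitated crosslinked tumour chromatin with the J1 antibody, which the labels describe as recognising Brg1 and its paralogue Brm, and sequenced 1 ChIP library and 1 input library without antibody. Both libraries came from primary medulloblastoma of mice carrying CAG-CreER and Rosa26-SmoM2. SmoM2 is an activated form of Smoothened, the transducer of Hedgehog signalling, here placed at the Rosa26 locus, and CAG is a broadly active promoter that drives the CreER recombinase. With SmoM2 as the activated transducer, the mice served as a model of the Shh type of this cerebellar cancer. The tumours were labelled as spontaneous. For age and for the number of tumours pooled, no label gave a value. The islands were those of the ChIP library, and the input was not analysed here.

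A proneural bHLH factor pairs with a widely expressed E protein and binds short DNA sites called E-boxes, where it switches on genes of neuronal fate or differentiation. Id proteins bind E proteins and keep them from pairing, and Hes and Hey factors repress proneural genes downstream of Notch. In the cerebellum, granule neuron progenitors depend on Atoh1 while they divide, express Neurod1 as they leave the cell cycle and differentiate, and can give rise to Shh-type medulloblastoma, while Ptf1a specifies the inhibitory neurons and is not a gene of the granule lineage. Brg1, encoded by Smarca4, and Brm, encoded by Smarca2, are the alternative ATPases of the BAF complex, which moves nucleosomes at promoters and enhancers.

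The deposited list held 5727 islands with 472238 reads, a median of 68 reads per island and a median width of 2200 bp. Depth outside the islands is unknown. Since only 1 ChIP library was made, no spread between animals could be estimated. Poisson intervals on reads cover counting error only. Wilson intervals on shares treat the genes of a list as independent draws, although these genes were chosen. A site bound in few cells and a site bound weakly in many cannot be told apart in such a library. Nor can Brg1 and Brm, since the labels describe the J1 antibody as recognising both. A Brg1 island is thus named after the ChIP library and may reflect either paralogue. A gene without an island had no region that passed the authors' caller, which does not show that Brg1 was absent. Islands lay in or within 5 kb of 7 of 7 granule lineage markers (Atoh1, Barhl1, Pax6, Zic1, Zic2, Meis1 and Neurod1). The same was true of 1 of 3 astrocyte markers (Gfap), 1 of 3 oligodendrocyte markers (Mbp), 0 of 3 microglial markers and 1 of 3 endothelial markers (Cdh5), where 16.9% of all protein-coding genes had one. Neurod1 is both a marker and one of the 9 genes. The marker lists were chosen with earlier results of these data known, so the 7 of 7 is a description and not independent support. An island does not measure expression, so these counts do not give the cell content of the tumour.

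Brg1 islands lay on or beside Neurod1, Neurod2, Neurod6 and Bhlhe22, and within 5 kb of none of Neurod4, the Neurog genes and Ptf1a. Of the 9 bHLH genes, 4 (44.4%, Wilson 95% interval 18.9 to 73.3) had an island in the gene or within 5 kb, against 16.9% of all protein-coding genes. An island overlapped the gene itself in 3 of the 9, Neurod1, Neurod6 and Bhlhe22, against 14.7% of all protein-coding genes. Within 100 kb, 6 of the 9 had an island (66.7%, Wilson 95% interval 35.4 to 87.9), against 45.6% of all protein-coding genes. The bHLH genes are short, between 1674 and 12103 bp, and a short gene offers less sequence for an island to overlap. Among the 6628 protein-coding genes within that range of lengths, 11.1% had an island in the gene or within 5 kb, 8.21% had one overlapping the gene and 46% had one within 100 kb. With 9 genes the intervals are wide. The genes were chosen with earlier results of these data known, so these shares describe the list without a test.

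**Figure D1:**
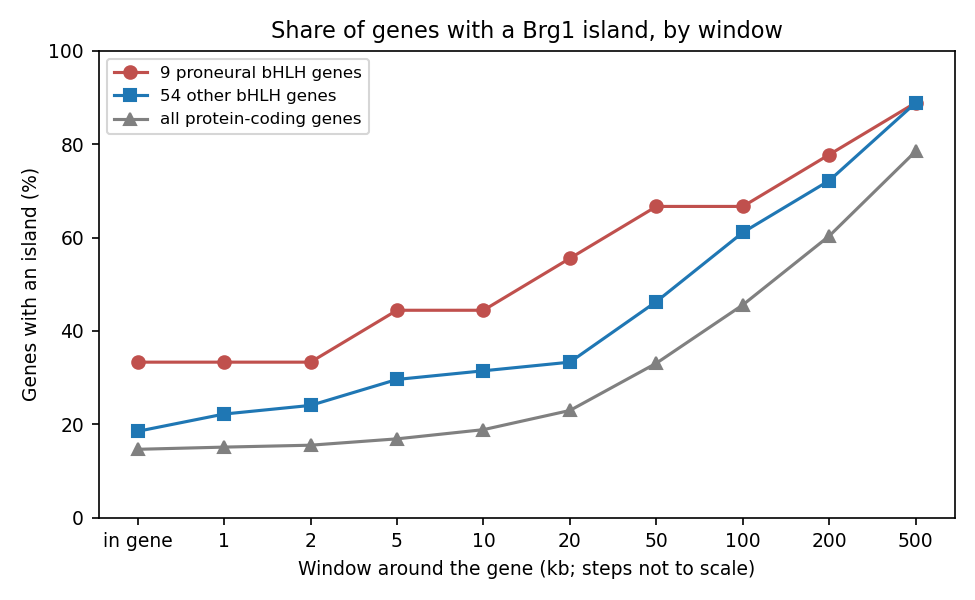
Share of genes with a Brg1 island (vertical axis, percent) in windows from the gene itself to 500 kb on either side (horizontal axis, steps not to scale), for the 9 proneural bHLH genes, 54 other bHLH genes and their partners, and all 21631 protein-coding genes. The 9 genes stand at 33.3% within the gene, 44.4% at 5 kb and 88.9% at 500 kb. The 54 others reach the same 88.9% at 500 kb. All protein-coding genes stand at 14.7%, 16.9% and 78.5% in these windows.

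Neurod1, which drives differentiation of granule neurons and is also required in pancreatic beta cells, had the island with the most reads of all those within 100 kb of the 9 genes. This island held 123 reads (exact Poisson 95% interval 102 to 147) over 4400 bp (chr2:79452844-79457243), which placed it 389th of 5727 by reads. It began 607 bp before the transcription start and ran 3792 bp past it, so that it covered 94.8% of the 4000 bp of the gene (chr2:79452637-79456636, minus strand). A second island of 64 reads (49.3 to 81.7) over 2200 bp lay upstream, 2008 bp before the start (chr2:79458644-79460843). Only 1400 bases separated these islands, and 5.15% of all islands had a neighbour at 1500 bases or less. A further island, of 112 reads (92.2 to 135) over 3000 bp, lay 36.0 kb downstream of Neurod1 (chr2:79413644-79416643). This one was inside Cerkl, a ceramide kinase-like gene known for its part in retinal disease, and 12345 bp from the nearest annotated start, which is that of Cerkl. Cerkl was also the next protein-coding gene to the islands at Neurod1, 23.9 kb from the one over the start and 29.7 kb from the upstream one.

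Bhlhe22, also known as Bhlhb5, a bHLH repressor of retinal, cortical and spinal neurons, resembled Neurod1 in having a pair of close islands. One of 108 reads (88.6 to 130) over 3200 bp (chr3:18053201-18056400) covered the lower-coordinate end of the gene and 65.1% of its 3190 bp. The other, of 74 reads (58.1 to 92.9) over 2600 bp (chr3:18049801-18052400), lay outside the gene, 1925 bp from that end. A stretch of 800 bases separated them. The strand of Bhlhe22 was not used here, so the covered end is given by coordinate and not as a start. The next protein-coding gene, Cyp7b1, an oxysterol hydroxylase gene, was 15.5 kb from the first island and 19.5 kb from the second. At least 2 islands in the gene or within 5 kb were thus found at 2 of the 9 genes, against 3.67% of all protein-coding genes.

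Neurod6, a factor of cortical pyramidal neurons also known as Nex, had 1 island within 100 kb. The island held 89 reads (71.5 to 110) over 3200 bp (chr6:55678607-55681806), began 543 bp before the start, ran 2656 bp past it and covered 77.1% of the 3446 bp gene (minus strand). The closest other island was 232.6 kb away, nearer than the 331.0 kb between the Neurod2 island and its next. The closest other protein-coding gene, Itprid1, was 123.5 kb away. The long noncoding RNA gene Gm3279 lay 2765 bp from it. An annotated start lay inside an island for 2 of the 8 bHLH genes with a start in the RefSeq promoter table, Neurod1 and Neurod6, against 8.57% of 17274 protein-coding genes with such a start.

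The islands on Neurod1, Neurod6 and Bhlhe22 took up much of each gene. Among the other 56 protein-coding genes between 3190 and 4000 bp long that an island overlapped, the median share covered was 37.5% (interquartile range 20.9 to 51.4). The share of Neurod1 was equalled or passed by 2 of these 56, that of Neurod6 by 5 and that of Bhlhe22 by 9. Island reads rise with width, and against islands of exactly the same width the Neurod1 and Neurod6 islands lay near the median. The 123 reads at Neurod1 stood against a median of 121 over 69 islands of 4400 bp, and the 89 reads at Neurod6 against a median of 90 over 263 islands of 3200 bp. The 108 reads at Bhlhe22 were above that same median of 90, at percentile 89.7 of islands of this width.

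**Figure D2:**
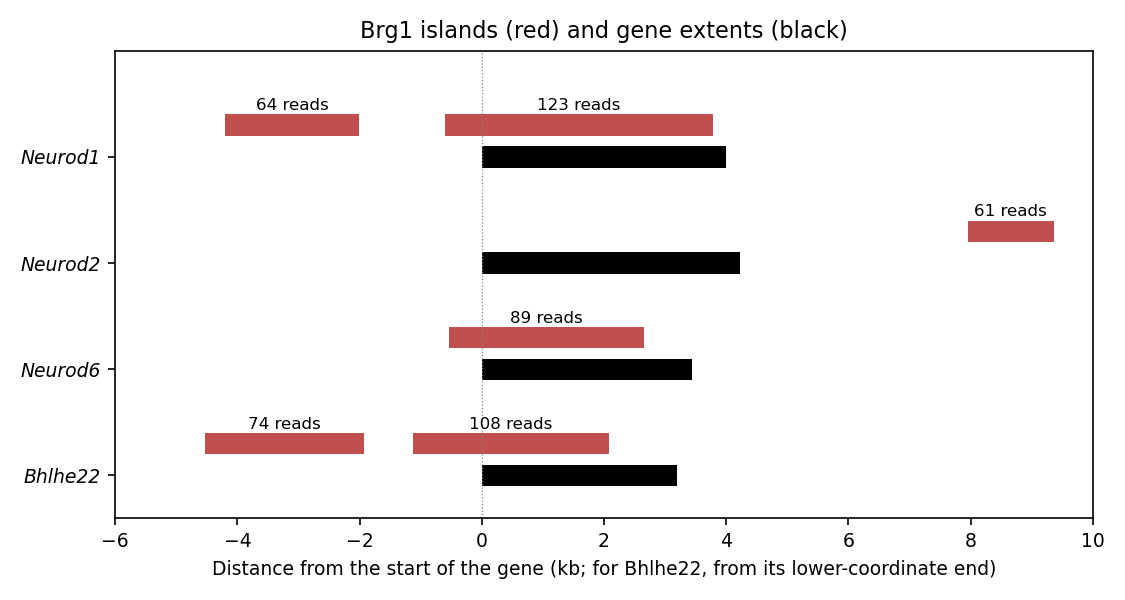
Gene extents (black bars) and Brg1 islands in the gene or within 5 kb (red bars, with their reads) for the 4 bHLH genes that have them, by distance in kb from the start of the gene, drawn in the direction of transcription for Neurod1, Neurod2 and Neurod6 and from the lower-coordinate end for Bhlhe22. The islands of 123 and 89 reads cross the starts of Neurod1 and Neurod6, while the island of 61 reads at Neurod2 lies beyond the far end of the gene.

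Neurod2, a factor of neuronal differentiation and survival expressed in granule neurons, had its only island beyond the downstream end. The island held 61 reads (46.7 to 78.4) over 1400 bp (chr11:98320287-98321686), 3729 bp past the end of the gene and 7959 bp from its start (minus strand). It was narrow but dense, with 8.71 reads per 200 bp (6.67 to 11.2) against a median of 6.27 over islands of all widths. Among 387 islands of its own width, where the median was 51 reads, it stood at percentile 94.96. Neurod2 was the nearest protein-coding gene, and the next, Gm33099, lay 12.8 kb from the island. The nearest annotated start, 6152 bp away, was that of the long noncoding RNA gene Gm31317 and not that of Neurod2. On the other side, the nearest island was 352 kb from Neurod2.

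Promoter sequences from RefSeq (GRCm38.p6) are given for the starts inside an island, those of Neurod1 and Neurod6, and for 2 starts outside one, those of Neurod2 and Neurog1. Each is the 250 bases before the start, read 5′ to 3′ in the direction of the gene, with E-box letters (CANNTG, which reads the same on both strands) in capitals. The windows are chr2:79456637-79456886 for Neurod1, chr6:55681264-55681513 for Neurod6, chr11:98329646-98329895 for Neurod2 and chr13:56252181-56252430 for Neurog1, all on the minus strand.
Neurod1: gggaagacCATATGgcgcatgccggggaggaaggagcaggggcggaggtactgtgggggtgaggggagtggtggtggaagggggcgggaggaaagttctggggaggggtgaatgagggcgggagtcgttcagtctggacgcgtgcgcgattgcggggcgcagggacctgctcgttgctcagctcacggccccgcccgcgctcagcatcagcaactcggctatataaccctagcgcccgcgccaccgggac
Neurod6: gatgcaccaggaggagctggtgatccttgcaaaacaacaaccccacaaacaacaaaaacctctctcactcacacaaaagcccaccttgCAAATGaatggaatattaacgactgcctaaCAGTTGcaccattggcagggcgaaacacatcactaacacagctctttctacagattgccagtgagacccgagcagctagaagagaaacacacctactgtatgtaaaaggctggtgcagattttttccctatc
Neurod2: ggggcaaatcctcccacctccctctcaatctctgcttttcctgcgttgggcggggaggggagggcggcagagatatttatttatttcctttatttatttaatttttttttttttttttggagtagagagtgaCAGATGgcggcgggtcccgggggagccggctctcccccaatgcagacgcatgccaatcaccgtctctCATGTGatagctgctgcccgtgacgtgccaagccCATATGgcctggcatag
Neurog1: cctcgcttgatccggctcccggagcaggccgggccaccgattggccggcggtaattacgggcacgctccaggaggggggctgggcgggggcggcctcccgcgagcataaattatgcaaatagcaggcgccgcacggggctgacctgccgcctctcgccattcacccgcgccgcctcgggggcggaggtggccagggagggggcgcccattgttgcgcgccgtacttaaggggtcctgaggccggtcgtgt

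The Neurod1 and Neurod6 windows lay wholly within their islands, yet their base content differed. The Neurod1 window had 67.6% G and C and 22 CpG dinucleotides, and the Neurod6 window had 46.0% G and C and 3 CpG. The median over 1393 protein-coding promoters whose start lay in an island was 64.0% and 20 CpG, against 54.8% and 9 CpG over 15875 whose start did not. The Neurog1 window, outside any island, was richer than either, with 71.2% G and C and 29 CpG, and that of Neurod2 had 52.8% and 11. Base content of this window therefore did not order the 4 promoters by whether they held an island.

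E-box letters were present in the windows of 4 of the 8 genes, with 3 matches at Neurod2, 2 at Neurod6, 1 at Neurod1 and 1 at Neurog3. At least 1 match was present in 62.7% of 17268 protein-coding promoter windows of this length. The median was 0 matches in windows whose start lay in an island, against 1 in those whose start did not. The forms at Neurod6, CAAATG and CAGTTG, began 162 and 132 bases before its start, inside the island. The form CATATG was present at Neurod1 and Neurod2, and in 2.80% of all windows. CAGATG or its other strand CATCTG was present at Neurod2 (12.4% of all windows) and CAGCTG at Neurog3 (11.8%), while CACGTG (6.72%) and TATAAA or TTTATA (12.45%) were found in none of the 8. The Gli-type letters TGGGTGGTC or GACCACCCA were found in none of the 8 and in 0.156% of all windows. The forms named here that begin with CA and end with TG are themselves E-boxes and are among those matches. A match is a run of letters and was not taken as a bound site.

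Neurod4 and Neurog3 had an island within 100 kb but none near the gene. Neurod4, a factor of retinal and other neurons also known as Math3, had one of 50 reads (37.1 to 65.9) over 2000 bp, 23.8 kb beyond its downstream end (chr10:130242345-130244344). Neurog3, the factor that specifies the endocrine pancreas, had one of 60 reads (45.8 to 77.2) over 2600 bp, 18.0 kb upstream (chr10:62112453-62115052). The island upstream of Neurog3 was 1403 bp from Fam241b, which was closer to it than Neurog3 was. Both were among the weakest islands of their width. The lowest count among 501 islands of 2000 bp was 48, and among 416 islands of 2600 bp it was 58. Without islands to which another protein-coding gene was closer, 5 of the 9 bHLH genes and 7 of the 9 islands would be left within 100 kb. The share of all protein-coding genes under this limit was not obtained, so these counts have no background.

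Neurog1, Neurog2 and Ptf1a had no island within 100 kb, where 45.6% of all protein-coding genes had one. Neurog1, which specifies sensory and other neurons, had its nearest island at 145 kb, on the lower-coordinate side. Neurog2, a factor of cortical and sensory neurogenesis, had its nearest at 269 kb. Ptf1a, the factor of cerebellar inhibitory neurons and of the exocrine pancreas, had its nearest at 678 kb. Of all protein-coding genes, 83.3% had an island nearer than that of Ptf1a. The matching shares were 53.2% for Neurog1 and 66.7% for Neurog2. The median distance to the nearest island was 18.0 kb over the 9 bHLH genes and 125 kb over all protein-coding genes. By family, 3 of 4 Neurod genes and 0 of 3 Neurog genes had an island in the gene or within 5 kb. The share was 16.9% over all protein-coding genes and 11.1% over those within the length range of the 9. With so few genes in each family, the difference between these families was not tested.

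Placed in order of reads, the 9 islands within 100 kb held 123 (Neurod1), 112 (Neurod1, in Cerkl), 108 (Bhlhe22), 89 (Neurod6), 74 (Bhlhe22), 64 (Neurod1, upstream), 61 (Neurod2), 60 (Neurog3) and 50 (Neurod4). Every neighbouring pair in this order had overlapping Poisson intervals, while the first and the last did not overlap. The 6 islands in a gene or within 5 kb had a median of 81.5 reads and 2900 bp, against 68 reads and 2200 bp over all islands. Their median density was 5.76 reads per 200 bp, against 6.27 over all islands, with no allowance for their greater width. Of these 6, 3 had more reads than the median of their own width and 3 did not.

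**Figure D3:**
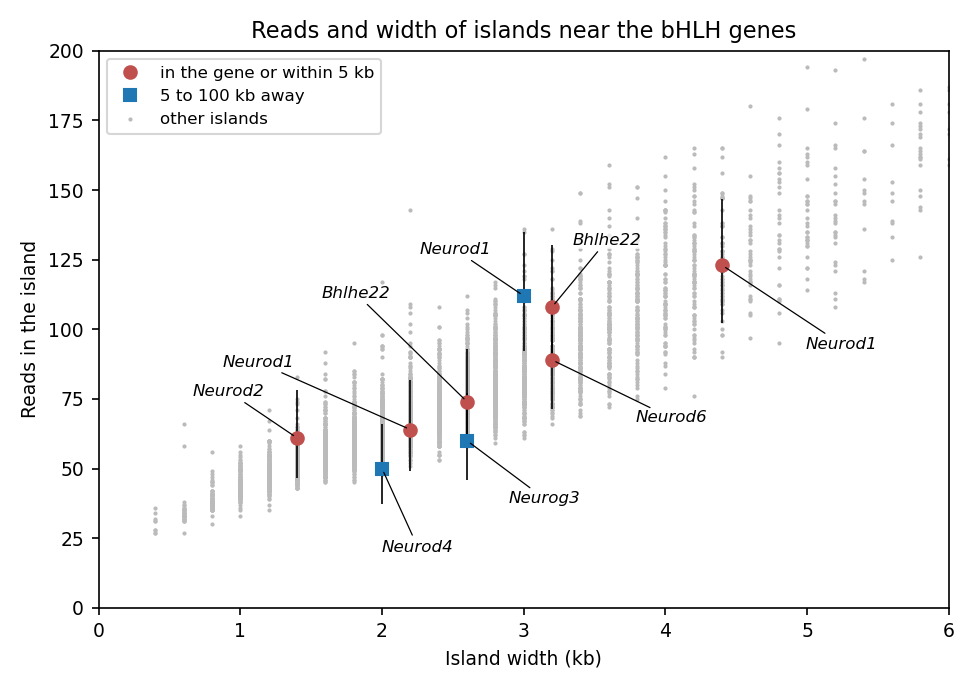
Reads (vertical axis) against width in kb (horizontal axis) of the 9 islands within 100 kb of the bHLH genes, named by gene, with exact Poisson 95% intervals, and of the other islands in grey, where 5628 of the 5727 islands fall within the axes. The islands of Neurod4 and Neurog3 lie at the lower edge of the grey points, and those of Neurod2 and, among the squares, Neurod1 near the upper edge.

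The wider bHLH network was read from a list of 54 other bHLH genes and their Id partners, all of which matched the annotation. This list too was chosen with earlier results of these data known. An island lay in the gene or within 5 kb for 16 of the 54 (29.6%, Wilson 95% interval 19.1 to 42.8), against 16.9% of all protein-coding genes. Of 11 genes grouped as other proneural and neuronal, not all of them neuronal, 5 had one. They were Olig1, an oligodendrocyte lineage gene (102 reads), Nhlh2 (91 reads) and Nhlh1 (71 reads), bHLH genes of immature neurons, Atoh1, which specifies granule neuron progenitors (89 reads), and Olig3, a gene of the rhombic lip and dorsal spinal cord (70 reads). Each of these counts is for the strongest island of the gene, which covered the start at Atoh1, Nhlh1 and Nhlh2, covered the whole gene at Olig1 and lay 3145 bp upstream at Olig3. Atoh1 and Nhlh1 each had a second island, of 76 reads 762 bp downstream of Atoh1 and of 66 reads 2474 bp upstream of Nhlh1.

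Islands were also found at partners and inhibitors of these factors, and the counts below stand beside 16.9% for all protein-coding genes. Of 3 E protein genes, 2 had them, Tcf4 with 10 islands in the gene or within 5 kb and 181 reads in the strongest (156 to 209), and Tcf12 with 2 and 73 reads in the strongest. Tcf4 is long, at 344.5 kb, and of 312 other protein-coding genes within 20% of that length 157 (50.3%) had an island, with a median of 1 and 10 or more in 1 gene. Of 4 Id genes, 2 had one, Id2 with 103 reads and Id1 with 45, each outside the gene. Of 7 Hes and Hey genes, 3 did, with 86 reads at Hes6, a Hes factor that promotes neuronal differentiation, 68 at Hey1 and 50 at Hes5. Bhlhe41 had 69 reads and Bhlhe40 no island within 5 kb. Of 27 bHLH genes of other tissues, 3 (11.1%, Wilson 95% interval 3.85 to 28.1) had one. These were the muscle gene Myod1 with 48 reads, Lyl1, a blood lineage gene, with 57, and Tcf15, a gene of the early somite, with 59, the last 2 outside the gene. The intervals of the neuronal and other groups overlapped, and the groups were not tested against each other.

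**Figure D4:**
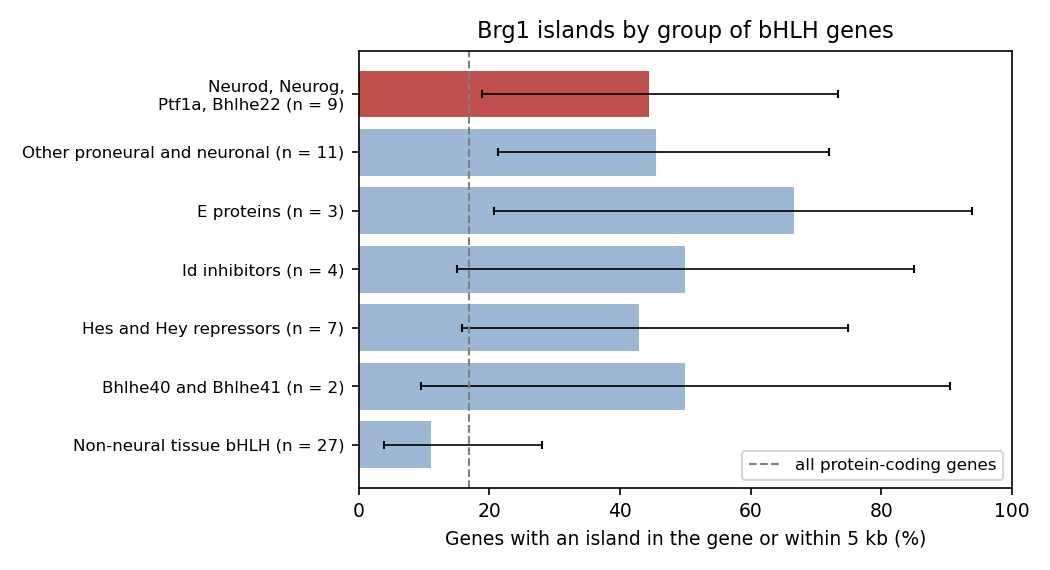
Share of genes with an island in the gene or within 5 kb (horizontal axis, percent) for the 9 proneural bHLH genes (top, red) and 6 groups of other bHLH genes and partners, with Wilson 95% intervals, where the dashed line marks the 16.9% of all protein-coding genes. The 9 genes stand at 44.4% and bHLH genes of other tissues at 11.1%. The other proneural and neuronal group, which includes the oligodendrocyte lineage gene Olig1, stands at 45.5%. These intervals overlap.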

How the data were processed

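Brg1 ChIP-seq was represented by 1 deposited list of islands. Per the submitters' processing notes, SICER 1.1, Picard 1.127 and Bowtie 0.12.7 were used, with mm10 and mm9 both listed and no step assigned to any of them. How the caller was set, and whether it used the input, is not stated there. The deposited whole number per island was read as its count of reads, from the values, since the file has no header and the number rises with width; it is not scaled for depth. It served to describe and rank islands inside this list alone, with exact Poisson intervals for counts and Wilson intervals for shares.

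Positions are 1-based. As deposited, 1481 of 17274 protein-coding genes had an annotated mm10 start inside an island, against 122 to 164 after a shift of every island by 10 to 200 kb, so coordinates were read as mm10. Whether islands were called on mm9 and moved was not settled. Distances ran between the nearest bases of gene and island, and an overlap of 1 bp counted; this step was tested on simulated placements. The RefSeq tables (GRCm38.p6) gave gene extents, and for 8 of the 9 genes a strand, start and promoter; Bhlhe22 had no promoter entry. Backgrounds used protein-coding genes on the chromosomes of the list. Python 3.11.15, pandas 2.3.3 and SciPy 1.17.1 were used.

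The 9 genes and the lists were chosen with earlier results of these data known. Genes named are the 9, the bHLH genes of the list with an island in the gene or within 5 kb, the markers and the nearest protein-coding genes of the islands, with Bhlhe40 and the noncoding genes Gm3279 and Gm31317 named after their values were seen. The comparisons within gene lengths, the counts over all genes within 1 Mb and those with islands of close spacing were likewise added after the values were seen. Alternatives were higher read counts, island midpoints, islands of at least 1 kb, no islands above 20 reads per 200 bp, other windows, starts in place of gene extents, and islands with no closer gene.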

Additional observations from a re-analysis of the deposited data

How the results depend on the processing

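Of 46 alternative counts, 35 stayed within 1.5 times the reported count and 11 did not. With only the 2938 islands whose reads reached the median, 3 bHLH genes and 5 islands were left within 100 kb, in place of 6 and 9. The 3 of 9 (33.3%) then stood near the 29.3% of all protein-coding genes. With the 1464 islands whose reads reached the upper quartile, 3 genes and 4 islands were left within 100 kb, 3 islands within 5 kb in place of 6, and 6 of the 54 other bHLH genes in place of 16. In the gene or within 5 kb, 3 of the 9 bHLH genes had an island under either limit, against 9.66% of all protein-coding genes with the median and 5.21% with the upper quartile. The share of all protein-coding genes within 100 kb was 17.3% with the upper quartile. A window of 200 kb in place of 100 kb gave 14 islands in place of 9. A window of 1 kb in place of 5 kb gave 3 islands in place of 6. Within 5 kb of the annotated start, 2 of the bHLH genes and 3 islands were counted, and 9 of the 54. Only 8 of the 9 and 38 of the 54 had a start in the table, so that fewer genes could count. No share of all protein-coding genes was obtained for this setting, so these counts cannot be set against a background. Island midpoints, islands of at least 1 kb and the removal of 13 islands above 20 reads per 200 bp moved none of the 5 counts by over 1.5 times. No paired analysis was possible because there was 1 ChIP library. Depth outside the islands is unknown, so weak binding at genes without an island was not measurable.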

Other observations

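The bHLH genes differed in how many islands lay in the wider region. Within 1 Mb, Neurod2 had 15 islands, Neurog3 12, Neurod6 11, Neurod1 9, Neurog1 and Neurog2 6 each, Bhlhe22 5, Ptf1a 3 and Neurod4 1. Over all protein-coding genes the median was 6 (interquartile range 2 to 10). Neurog3, with the second highest number in 1 Mb, had only 1 within 500 kb, and Ptf1a had none within 500 kb. The only island within 1 Mb of Neurod4 was the one of 50 reads already described, and the next island from it was 1319 kb away. Neurod4 lies near the end of its chromosome, where the last annotated gene ends 312.6 kb beyond it, so its window is cut short on that side. Neurod2 lay in the most gene-rich surroundings, with 8 other protein-coding genes within 100 kb, and Neurod6 had none.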
